A study of Mus musculus with 6 samples.

Results

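The PYHIN genes are a cluster of interferon-inducible genes on mouse chromosome 1, many of whose proteins bind DNA. The 9 genes examined here are Ifi203, Ifi204, Ifi207, Ifi208, Ifi209, Ifi211, Ifi213, Mndal and Aim2, and all 9 had a row, by Ensembl identifier, among the 35275 gene rows of each count table. They were measured in RNA of whole, perfused lungs of Balb/c mice, taken 7 days after 250000 4T1 cells had been injected into a tail vein. The 4T1 line was derived from a mammary tumour of a Balb/c mouse and forms tumours in the lung. In 3 libraries the injected cells were unmodified (WT), and in 3 they lacked PD-L1 (4T1.PD-L1 KO), a surface protein that restrains T cells. KO and WT therefore name the injected tumour cells. No label describes an edit of the host mice, so both groups of hosts carry their own PYHIN genes. The age and sex of the mice, the number of animals behind a library, and whether the KO line is a single clone are not given in the sources at hand. Any other difference between the 2 injected lines, or in tumour load, cannot be told apart from the loss of PD-L1.

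Many PYHIN proteins pair an amino-terminal pyrin domain, which binds other pyrin domains, with 1 or more HIN domains, which bind DNA. AIM2 senses double-stranded DNA in the cytosol and assembles an inflammasome with the adaptor ASC, which activates caspase-1 and the release of interleukin-1 beta and interleukin-18. The Ifi204 protein, p204, is the mouse protein most often set beside human IFI16 and has been tied to DNA sensing through STING and to the differentiation and growth of myeloid cells. Roles of Ifi203, Ifi207, Mndal and the remaining genes are less well defined, and several of their proteins lie in the nucleus. The family differs in size between mammals and between mouse strains, and many of its genes arose by local duplication.

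The duplication was visible in the start regions. RefSeq promoter windows of GRCm38.p6, which run from 250 bases before to 50 bases after a transcription start, were at hand for 8 of the 9 members (10 windows, since Ifi203 and Mndal have 2 starts each). There was none for Ifi204. Windows were searched on both strands for the core of the interferon-stimulated response element, GAAANNGAAA, a sequence bound by transcription factors of the interferon response such as IRF proteins. It was found in 7 of the 10 member windows, belonging to 6 of the 8 genes, while 3.44% of all 32851 promoter windows of this length held it. A second motif, the gamma-activated site core TTCNNNGAA, was in 0 of the 10 member windows and in 8.3% of all windows, so no member window held overlapping matches of both. Windows of duplicated genes are copies, so they are not independent observations, and a match is a string of letters and no measured binding. The stretches of 30 bases around the match are shown because the same letters recur in the members, with the motif in capitals, 5′ to 3′ on the gene's strand.
Ifi203: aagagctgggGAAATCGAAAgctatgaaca
Mndal: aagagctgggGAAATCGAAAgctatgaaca
Ifi207: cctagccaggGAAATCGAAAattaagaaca
Ifi211: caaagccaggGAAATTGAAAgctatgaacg
Ifi208: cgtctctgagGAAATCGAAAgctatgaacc
Ifi213: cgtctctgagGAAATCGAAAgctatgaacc
They lie at chr1:173942508-173942537 (Ifi203), chr1:173880204-173880233 (Mndal, its upstream start), chr1:173741831-173741860 (Ifi207), chr1:173913064-173913093 (Ifi211), chr1:173673597-173673626 (Ifi208) and chr1:173599326-173599355 (Ifi213), on the minus strand except for Ifi208. The motif began 35 bases before the start in Ifi203, 36 in Mndal, 37 in Ifi211, 41 in Ifi207, 58 in Ifi208 and 73 in Ifi213. Read whole, the form GAAATCGAAA occurred in 16 of all 32851 windows (0.0487%), and 7 of these 16 belonged to the cluster, those of Ifi203, Ifi207, Ifi208, Ifi213 and Mndal and of the family genes Ifi206 and Ifi214. Ifi211 and the family gene Ifi205 held GAAATTGAAA. The window of Ifi209 missed the motif by the substitution G1T, with positions counted from 1 at the 5′ end of GAAATCGAAA.
Ifi209: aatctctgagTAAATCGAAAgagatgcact
The capitals mark the 10 bases compared. The second Mndal window, at the downstream start, held the motif on the opposite strand only. Aim2 had no match in its window, and neither had the upstream start of Ifi203. The only Aim2 window, chr1:173420354-173420653, lies inside the annotated span of the gene (173350879 to 173466040). The Mndal windows, up to 173880437, also lie inside the annotated span of Mndal (173849126 to 173942491). The outer 5′ ends of these spans were not searched as starts of Aim2 or Mndal.

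The 250 bases before the start are given for Ifi207 and Ifi208, whose windows hold the motif, and for Aim2, whose window does not, again with a match in capitals.
Ifi207: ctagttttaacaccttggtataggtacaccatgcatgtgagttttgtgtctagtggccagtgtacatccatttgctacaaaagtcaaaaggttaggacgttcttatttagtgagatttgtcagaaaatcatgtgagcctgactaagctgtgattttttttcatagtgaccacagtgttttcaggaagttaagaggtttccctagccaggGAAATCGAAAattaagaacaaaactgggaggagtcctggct
Ifi208: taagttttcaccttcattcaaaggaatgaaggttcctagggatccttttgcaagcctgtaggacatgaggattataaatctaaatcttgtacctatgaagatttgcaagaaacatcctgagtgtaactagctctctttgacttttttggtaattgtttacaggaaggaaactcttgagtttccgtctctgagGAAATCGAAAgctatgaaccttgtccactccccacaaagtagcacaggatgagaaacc
Aim2: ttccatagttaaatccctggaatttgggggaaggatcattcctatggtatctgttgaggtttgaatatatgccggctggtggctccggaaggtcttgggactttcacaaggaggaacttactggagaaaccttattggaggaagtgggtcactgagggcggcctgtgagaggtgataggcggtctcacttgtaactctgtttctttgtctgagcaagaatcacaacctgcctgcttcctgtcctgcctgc
They come from chr1:173741810-173742059 (minus strand), chr1:173673415-173673664 (plus strand) and chr1:173420354-173420603 (plus strand). Over the whole 300-base windows, aligned pair by pair with end gaps free, Ifi208 and Ifi213 shared 282 identical bases (94% of the window), as did Ifi203 and the upstream start of Mndal. Ifi209 shared 287 with Ifi214, Ifi208 shared 279 with Ifi206, and Ifi207 shared 260 with Ifi211. The median over all 91 pairs of windows was 54.7%. Ifi208 and Ifi213, with nearly the same start region, had unlike levels, given with their counts below.

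**Figure D1:**
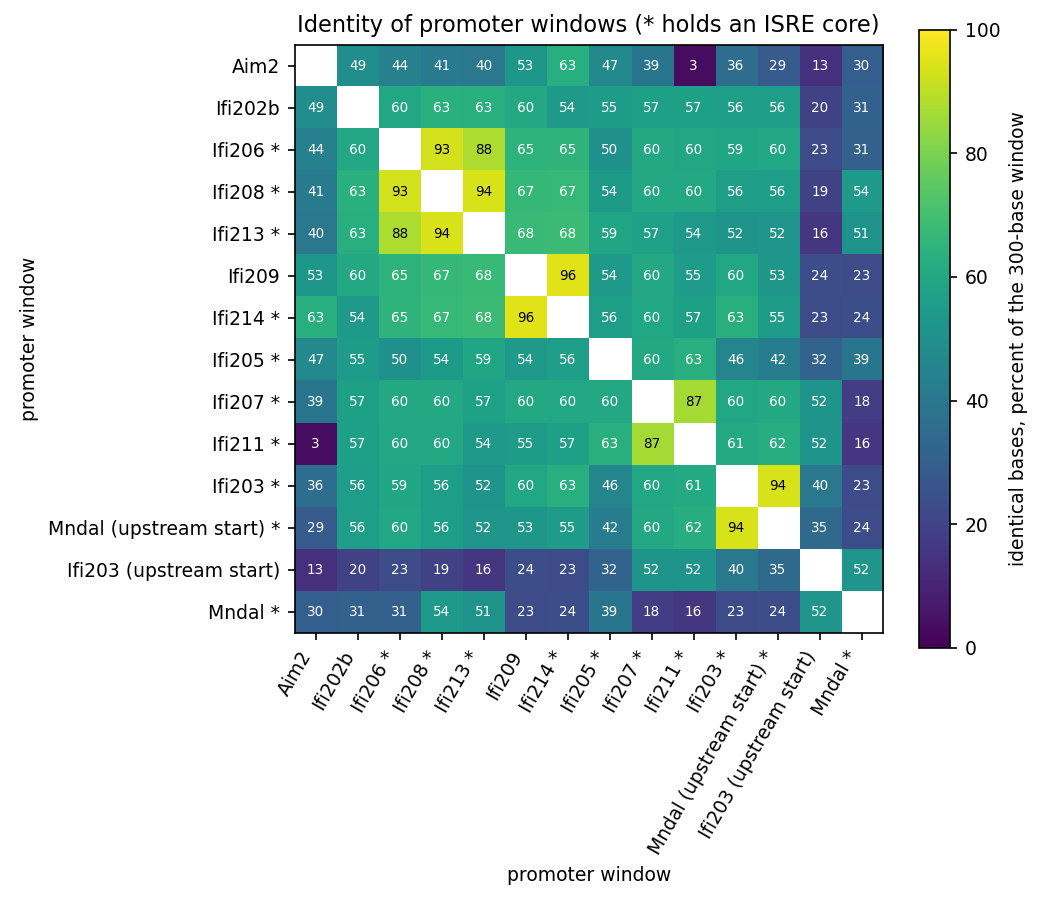
Share of identical bases (percent of the 300-base window, colour and number) between promoter windows of the 8 members with a window and of Ifi202b, Ifi205, Ifi206 and Ifi214, with an asterisk where the window holds the interferon-stimulated response element core. The brightest cells join Ifi209 with Ifi214, Ifi203 with the upstream start of Mndal, Ifi208, Ifi213 and Ifi206 with each other, and Ifi207 with Ifi211.

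Libraries held 14711459 to 16932114 counts, and a count of 0 allows, at 3 counts, up to 0.176 to 0.206 CPM (counts scaled to library size with TMM factors, which correct for composition). This floor covers counting error only. Counts of Cd274, which encodes PD-L1, were 910, 912 and 1132 in WT and 1514, 3013 and 4929 in KO lungs (edgeR adjusted p = 0.161, not called). It was thus higher in every KO library, by 3.13-fold in the fit, which is opposite to a loss of the gene. The RNA of host cells, which keep the gene, is in the same libraries, so Cd274 gives the labels no support, and WT and KO are used as the labels give them. Markers of lung epithelium were present in all libraries, at 13620 to 14950 summed CPM in WT and 13930 to 17390 in KO for 9 genes such as Sftpc and Ager. Among them Scgb1a1, a marker of airway club cells, was at 307.0 to 798.2 CPM in WT and 1313 to 3113 CPM in KO lungs (edgeR adjusted p = 0.158), and DESeq2 and limma-voom each called 1 of the 9 higher. Over all genes, DESeq2 called 367 higher and limma-voom 154. The part of airway cells in the members' differences was not tested.

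In lungs with KO tumour cells, Ifi204 and Ifi203 rose, by 3.53-fold and 1.63-fold, and no member fell. Ifi207, Ifi209 and Mndal were each higher in every KO library than in every WT library without passing the test, and Ifi211 overlapped between the groups. Aim2 and Ifi208 had nearly equal means in both groups. Ifi213 was close to the limit of detection. Of the 8 members that passed the filter on low counts, 2 were called higher and 0 lower by edgeR's quasi-likelihood test, where 1.12% of the 15191 genes tested were called higher and 0.336% lower. DESeq2 called 3 of them higher and limma-voom 1, and neither called any lower. Of all genes tested, 367 were called higher by DESeq2 and 154 by limma-voom. At an unadjusted p under 0.05, 6 of the 8 were higher (8.29% of all genes) and 0 lower. For 5 of the 8 the lowest KO library exceeded the highest WT library, against 10.3% of all genes, and for 0 of the 8 the groups were separate in the other direction, against 9.4%. The median log2 fold change of the 8 was 0.74, beside 0.01 over all genes tested. Leaving out WT replicate 1, WT replicate 2 or KO replicate 3 left 0 members called, and leaving out KO replicate 2 left 1. RNA of a whole lung was measured, so more cells of a kind and more of this RNA per cell cannot be told apart.

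**Figure D2:**
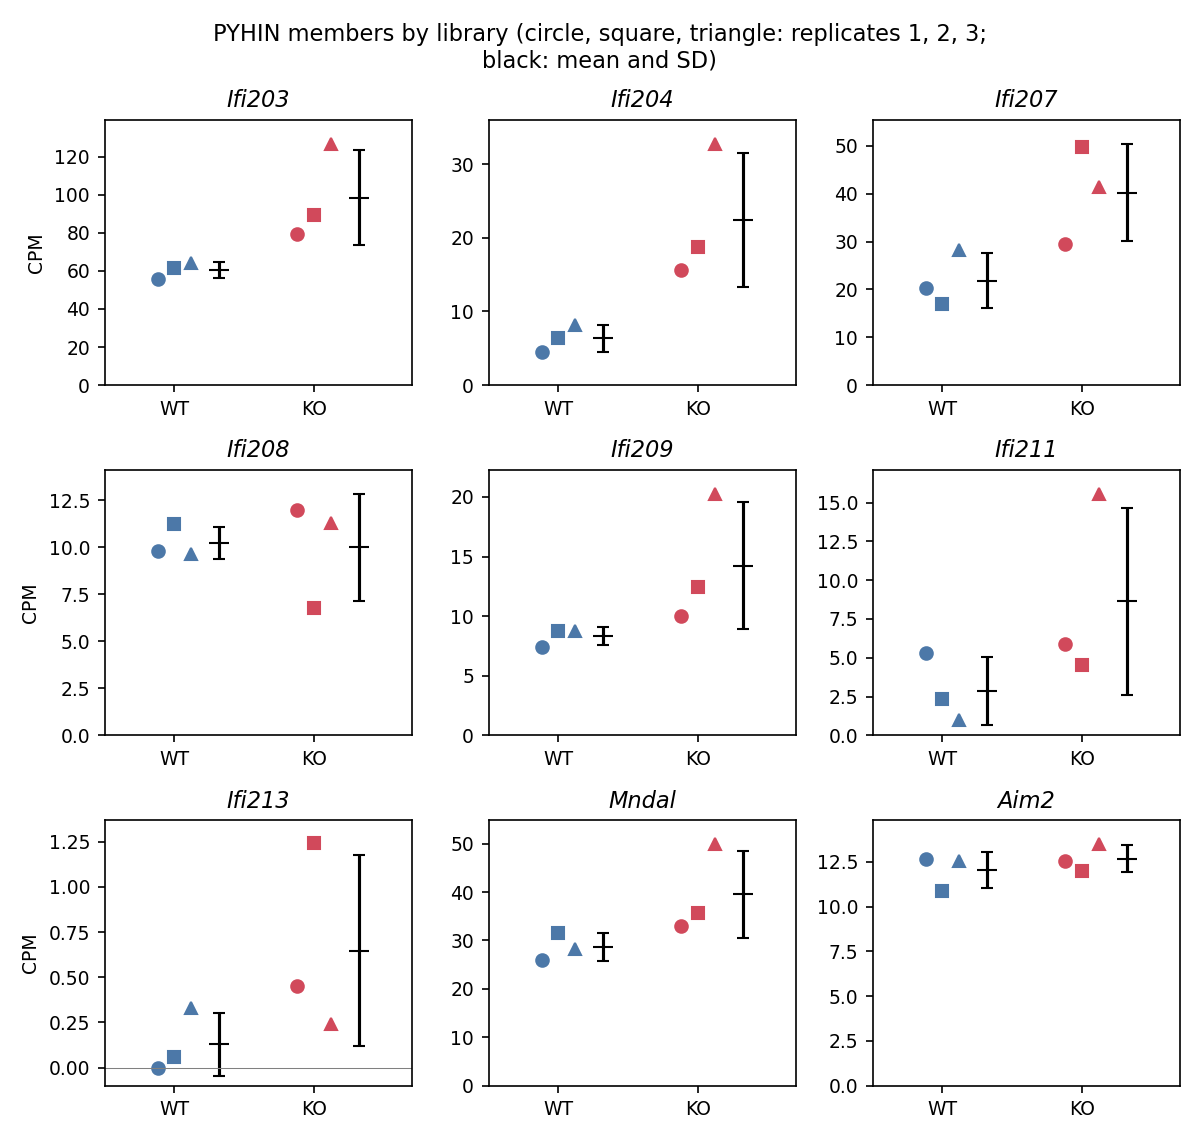
CPM of each member in each library, WT in blue and KO in red, with symbols for replicates 1 to 3 and the mean and SD of 3 libraries in black. The KO points of Ifi203, Ifi204, Ifi207, Ifi209 and Mndal all lie above the WT points, those of Aim2, Ifi208, Ifi211 and Ifi213 do not.

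Ifi204, the p204 gene (173747293 to 173766943 on chromosome 1, GRCm38, minus strand), was counted 65, 109 and 124 times in WT and 243, 287 and 538 times in KO lungs. As CPM these were 4.47, 6.40 and 8.14 against 15.6, 18.8 and 32.8. The lowest KO library was thus above the highest WT library, and KO replicate 3 stood above the other KO libraries. The mean of Ifi204 rose from 6.34 ± 1.84 CPM to 22.4 ± 9.13 CPM (n = 3 per group, SD), a log2 fold change of 1.82 ± 0.30 (SE; edgeR adjusted p = 0.0144). This was the largest difference among the tested members. The call was lost without WT replicate 1 (adjusted p = 0.0774), WT replicate 2 (0.0788) or KO replicate 3 (0.0626), with log2 fold changes of 1.62, 1.83 and 1.44.

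Ifi203, which encodes a PYHIN protein of the nucleus (173920407 to 173942672, minus strand), was the most abundant member by counts. It had 811, 1044 and 977 counts in WT and 1233, 1365 and 2079 in KO lungs, or 55.8, 61.3 and 64.1 against 79.4, 89.4 and 126.8 CPM. The groups did not overlap, and KO replicate 3 was again the highest. The mean of Ifi203 rose from 60.4 ± 4.26 CPM to 98.5 ± 25.0 CPM (n = 3 per group, SD), a log2 fold change of 0.71 ± 0.16 (SE; edgeR adjusted p = 0.0428). The call was lost without WT replicate 1, 2 or 3 (adjusted p = 0.179, 0.139 and 0.0624), without KO replicate 2 or 3 (0.133 and 0.164) and in limma-voom (0.0535).

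Ifi207 (173723427 to 173741747, minus strand), whose start region was shown above, had 294, 290 and 431 counts in WT and 458, 760 and 680 in KO lungs. The CPM were 20.2, 17.0 and 28.3 in WT and 29.5, 49.8 and 41.5 in KO lungs, so that WT replicate 3 and KO replicate 1 lay close to each other. Its log2 difference of 0.88 ± 0.22 (SE) did not pass (edgeR adjusted p = 0.0608). It passed without WT replicate 3 (adjusted p = 0.0293), without KO replicate 1 (0.00778), by DESeq2 (0.00734) and with no filter on low counts (4.26e-05). With no filter, higher calls over all genes went from 170 to 578. Ifi207 did not pass by limma-voom (adjusted p = 0.0728). Nor did it pass by edgeR without WT replicate 1 or 2 (adjusted p = 0.210 and 0.237) or KO replicate 2 or 3 (0.303 and 0.190).

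Mndal (173849126 to 173942491, minus strand), a gene whose annotated span contains Ifi211 and overlaps that of Ifi203, had 378, 539 and 430 counts in WT and 514, 545 and 818 in KO lungs. Its CPM were 26.0, 31.7 and 28.2 against 33.1, 35.7 and 49.9, without overlap and with a narrow gap. The log2 difference was 0.47 ± 0.17 (SE; edgeR adjusted p = 0.217). Exons of Mndal overlapped exons of Ifi203 or of the pseudogene Gm38050 over 155 bases, 4.27% of its exonic length, and reads of such bases cannot be assigned to either gene without further information.

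Ifi209 (173630917 to 173647928, plus strand), also called Pyhin1, had 108, 149 and 133 counts in WT and 156, 190 and 332 in KO lungs. Its CPM of 7.42, 8.75 and 8.73 in WT were all below the 10.04, 12.5 and 20.2 of KO lungs. The log2 difference was 0.78 ± 0.27 (SE; edgeR adjusted p = 0.183). Without KO replicate 3 it was 0.43.

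Ifi211 (173896345 to 173913046, minus strand), also named Mnda after the human myeloid nuclear differentiation antigen, was the most variable of the tested members. It had 77, 40 and 15 counts in WT and 91, 69 and 255 in KO lungs, or 5.29, 2.35 and 0.985 against 5.86, 4.52 and 15.6 CPM. WT replicate 1 lay above KO replicate 2, so the groups overlapped. The log2 difference of 1.59 ± 0.59 (SE) did not pass (edgeR adjusted p = 0.233). Without KO replicate 3 it was 0.85.

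Aim2, the inflammasome sensor (173350879 to 173466040, plus strand), had nearly the same count in every library, 184, 185 and 191 in WT and 195, 183 and 221 in KO lungs. WT lungs had 12.0 ± 1.0 CPM and KO lungs 12.7 ± 0.749 CPM (SD, n = 3 per group), a log2 difference of 0.08 ± 0.20 (SE; edgeR adjusted p = 0.908). Ifi208 (173673675 to 173698395, plus strand), formerly Pydc3, had 143, 191 and 147 counts in WT and 186, 103 and 185 in KO lungs. Its log2 difference was −0.03 ± 0.26 (SE; edgeR adjusted p = 0.969), with the lowest and the highest CPM both among the KO libraries (6.75 in replicate 2 and 12.0 in replicate 1). Leaving out WT replicate 2 gave 0.04 and leaving out KO replicate 2 gave 0.18, with the sign turned.

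Ifi213 (173566283 to 173599274, minus strand), formerly Pydc4, had 0, 1 and 5 counts in WT and 7, 19 and 4 in KO lungs. It did not pass the filter on low counts, which asks for about 10 counts in 3 libraries, and no fold is given. Its promoter window is the near copy of that of Ifi208, whose counts were between 103 and 191 in the same libraries.

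**Figure D3:**
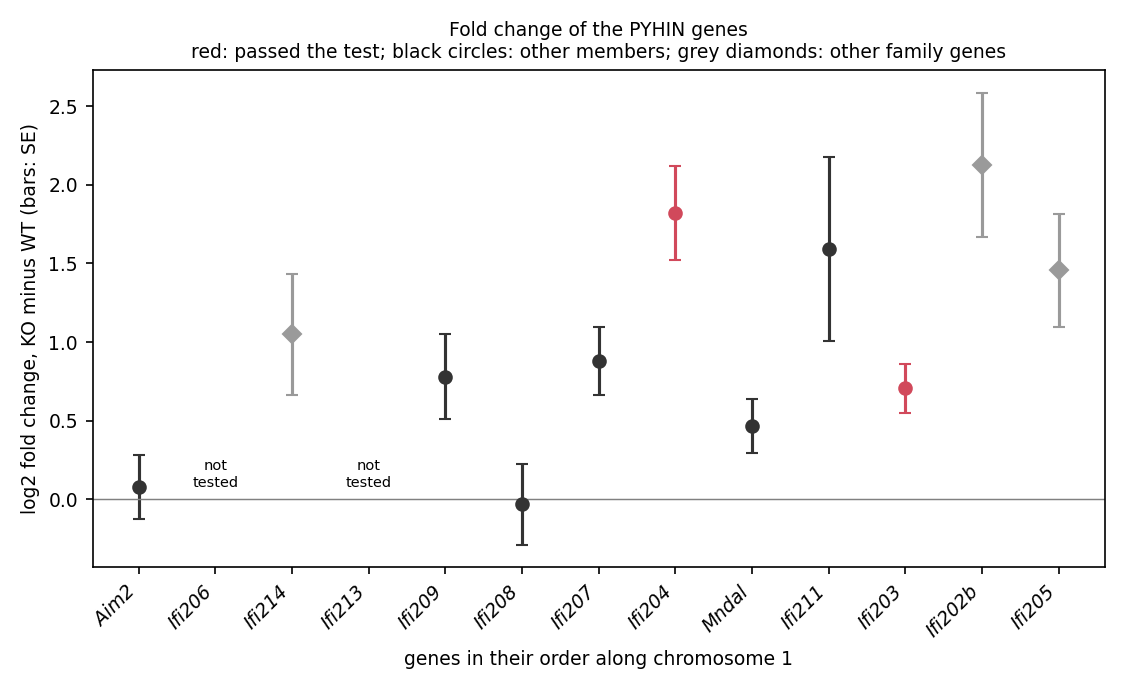
Log2 fold change, KO minus WT, of 11 tested PYHIN genes in their order along chromosome 1, with SE bars, red for the genes that passed the test, black for other members and grey diamonds for family genes that are no member. The values run from about 0 in Aim2 and Ifi208 to 1.82 in Ifi204 among members and 2.13 in Ifi202b among the others, and Ifi206 and Ifi213 were not tested.

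KO replicate 3 was the highest library for 6 of the 8 tested members, and KO replicates 2 and 1 for Ifi207 and Ifi208. The mean of the members' log2 CPM, centred on each gene, was −0.34, −0.36 and −0.34 in the WT libraries and 0.12, 0.18 and 0.75 in the KO libraries. The mean was thus nearly level over WT libraries, where single members went opposite ways (Ifi204 lowest and Ifi211 highest in replicate 1), and KO replicate 3 was apart from the other KO libraries. Summed over the 9 members, the family's CPM were 141.6, 149.6 and 161.0 in WT and 198.4, 230.7 and 311.7 in KO lungs, and the means of 150.7 ± 9.74 and 246.9 ± 58.3 CPM (SD, n = 3 per group) differed by 1.64 times. The sum is a description and was not tested.

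Levels of different genes were compared as TPM, counts divided by exonic length and scaled to the same sum in every library. In WT lungs the order was Ifi203 (33.1 ± 2.62 TPM), Mndal (29.0 ± 3.87), Ifi207 (23.3 ± 5.52), Aim2 (12.6 ± 0.633), Ifi209 (8.60 ± 0.945), Ifi208 (7.16 ± 0.869), Ifi204 (6.53 ± 1.84), Ifi211 (5.91 ± 4.44) and Ifi213 (0.0681 ± 0.0910), each as mean and SD over 3 libraries. Library values of the neighbours Ifi203 and Mndal, and Mndal and Ifi207, overlapped, as did those along the chain Ifi209, Ifi208, Ifi204 and Ifi211. Aim2 was separate from the genes before and after it, and Ifi213 was below all others. In KO lungs Ifi203 (50.1 ± 11.5 TPM) still came first, followed by Ifi207 (40.1 ± 9.76), Mndal (37.2 ± 7.62), Ifi204 (21.4 ± 8.22), Ifi211 (16.4 ± 11.1), Ifi209 (13.7 ± 4.79), Aim2 (12.4 ± 0.602), Ifi208 (6.51 ± 1.89) and Ifi213 (0.324 ± 0.264). There the gaps without overlap lay between Mndal and Ifi204, between Aim2 and Ifi208, and between Ifi208 and Ifi213. Aim2 had rank 4 in WT and rank 7 in KO lungs, and Ifi204 had rank 7 in WT and rank 4 in KO lungs.

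**Figure D4:**
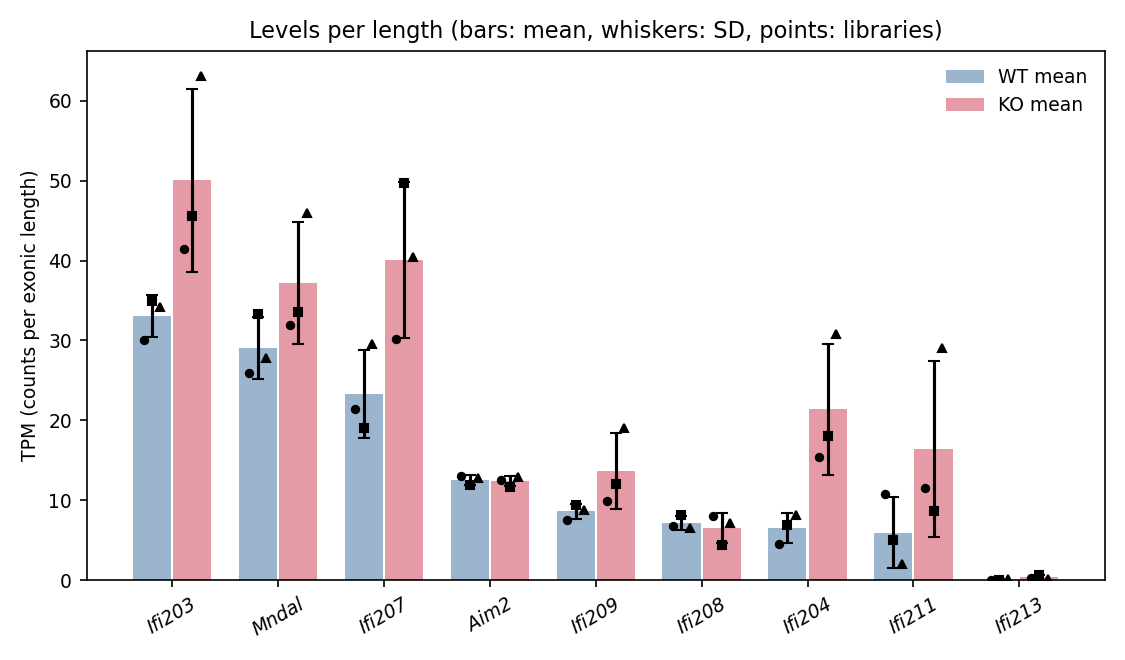
TPM of the 9 members, bars for the group means, whiskers for the SD and points for the 3 libraries of each group, ordered by the WT mean. Ifi204 goes from 6.53 to 21.4 TPM while Aim2 stays at 12.6 and 12.4.

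As a share of the family's summed TPM, Ifi204 made up 3.78, 5.34 and 6.28% in the WT libraries and 9.55, 9.79 and 12.4% in the KO libraries, without overlap. The share of Aim2 was lower in all KO libraries, at 9.22 to 10.9% in WT and 5.17 to 7.79% in KO lungs, as were those of Ifi208 and Mndal. A share falls when a gene rises less than the sum. The CPM of Mndal itself was higher in every KO library than in every WT library. Shares of Ifi203 overlapped, at 25.1 to 27.2% and 24.7 to 25.7%. Ratios of counts within a library do not depend on the scaling between libraries, and 7 of them, each member tested except Ifi213 against Aim2, were compared by a two-sided exact permutation test whose smallest possible p is 0.1. The log2 ratio of Ifi204 to Aim2 was −1.50, −0.76 and −0.62 in WT and 0.32, 0.65 and 1.28 in KO lungs (difference 1.71, exact p = 0.1, Benjamini-Hochberg adjusted p = 0.233 over 7 ratios). Differences for Ifi203 (0.60) and Ifi207 (0.80) reached the same p of 0.1, while that of Ifi208 was −0.15 (exact p = 0.7). With 3 libraries against 3, such ratios cannot pass a threshold of 0.05.

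Near-identical sequence limits how reads can be assigned. Each member's annotated transcripts were cut into all windows of 100 bases, and those found in a transcript of any other gene were counted. Ifi211 shared 56.9% of its windows, 37.2% with Ifi205 and 19.6% with Ifi204. Ifi209 shared 16.9%, all with Ifi214, and Ifi204 shared 10.7%, mostly with Ifi211 (9.56%). The shares were 6.38% for Mndal, 5.92% for Ifi208, 3.3% for Ifi213, 2.84% for Ifi203, 0.79% for Ifi207 and 0 for Aim2. Aim2 was the only member without a shared window at this length, and the family gene Ifi202b, no member, shared 0 as well. Ifi211 and Ifi209 share the largest part of their sequence among the members. How the counting treated reads that fit several genes is stated in no source used here, nor is the read length, and Balb/c sequence can differ from the C57BL/6J reference. The effect of shared sequence on the TPM levels, their order, the shares of the family and the differences was not tested.

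**Figure D5:**
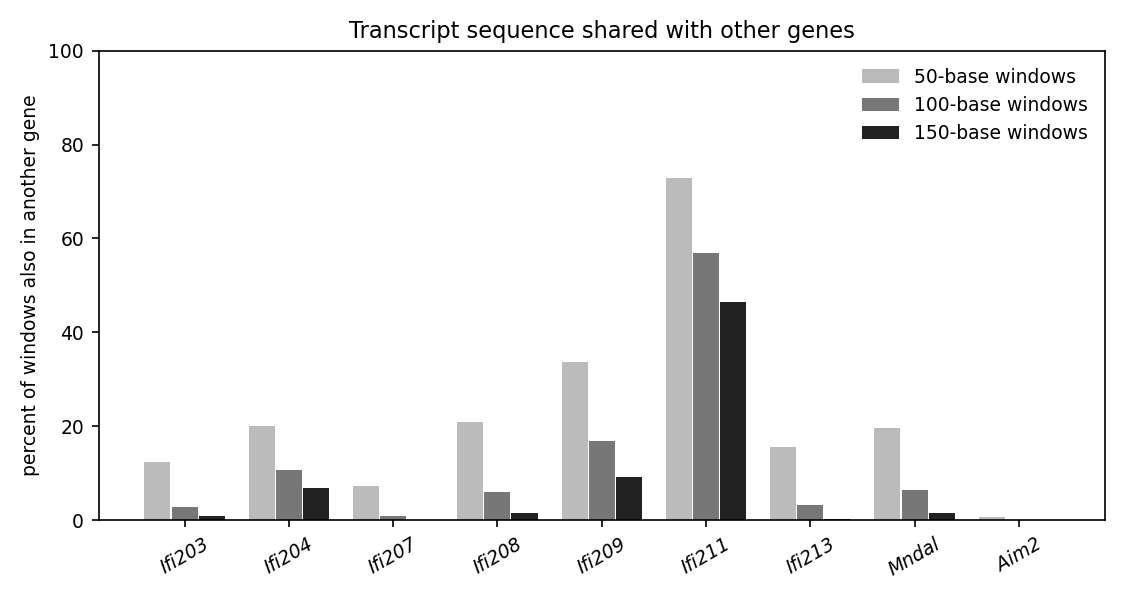
Percent of each member's transcript windows of 50, 100 or 150 bases that also occur in a transcript of another gene. Ifi211 stands highest at each length, at 72.8%, 56.9% and 46.4%, and Aim2 lowest, at 0.742%, 0 and 0, level with Ifi207 at 150 bases.

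The cluster holds 4 further PYHIN genes with a row, Ifi202b, Ifi205, Ifi206 and Ifi214. None of the 3 that were tested was called higher or lower by edgeR, all 3 were higher at an unadjusted p under 0.05, and DESeq2 called 2 and limma-voom 0 of them higher. Their median log2 difference was 1.45, beside 0.01 over all genes tested, of which 8.29% were higher at an unadjusted p under 0.05. DESeq2 called 367 of all genes higher and limma-voom 154. Ifi202b, which encodes p202, a HIN protein without a pyrin domain that binds DNA and restrains Aim2 in mice, had 139, 65 and 125 counts in WT and 223, 522 and 743 in KO lungs. Its log2 difference of 2.13 ± 0.46 (SE) exceeded that of every member, with an edgeR adjusted p of 0.0695. Ifi205, the closest relative of Ifi211 by shared windows, had 58, 55 and 50 counts in WT and 81, 138 and 238 in KO lungs (log2 difference 1.45 ± 0.36, edgeR adjusted p = 0.0667). Ifi214 went from 2.59 ± 0.353 to 5.38 ± 1.76 CPM (SD, n = 3 per group; edgeR adjusted p = 0.214). Ifi206 had 0, 3 and 4 counts in WT and 6, 3 and 11 in KO lungs and was not tested. The pseudogene Ifi203-ps, within the cluster, was at 2.58 ± 1.72 and 1.97 ± 0.838 CPM (SD, n = 3 per group; edgeR adjusted p = 0.828). Of the 10 nearest protein-coding genes on both sides of the cluster 5 had 0 counts in all libraries, 2 were tested and 0 called by edgeR, DESeq2 or limma-voom, with 0 at an unadjusted p under 0.05. Cadm3, which borders Aim2, was at 2.19 ± 0.555 and 2.65 ± 1.12 CPM (SD, n = 3 per group; edgeR adjusted p = 0.860).

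Aim2 acts with the genes of the inflammasome. Of 15 inflammasome and pyroptosis genes, 0 were called by edgeR, 3 were higher at an unadjusted p under 0.05, and DESeq2 and limma-voom called 1 each. Over all genes 8.29% were higher at that p, DESeq2 called 367 higher and limma-voom 154. The median log2 difference of the list was 0.41, and 14 of the 15 were above 0, as were 7740 of all 15191 genes. Pycard, which encodes the adaptor ASC, had means of 6.66 ± 2.16 and 11.0 ± 3.89 CPM in WT and KO lungs (SD, n = 3 per group; edgeR adjusted p = 0.300). Casp1 was at 9.69 ± 2.92 and 15.1 ± 8.79 CPM (adjusted p = 0.466), Il1b at 244.8 ± 100.2 and 396.9 ± 76.4 CPM (0.370) and Il18 at 17.4 ± 5.67 and 23.5 ± 2.43 CPM (0.390), all by edgeR over 3 libraries per group. The smallest p in the list was that of Il1a (log2 difference 0.87 ± 0.23, edgeR adjusted p = 0.0985).

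The second DNA-sensing route runs through cGAS and STING. Of 21 tested genes of this list 3 rose and 0 fell by edgeR, DESeq2 called 4 higher and limma-voom 3, and at an unadjusted p under 0.05 there were 6 higher and 1 lower. The median log2 difference was 0.13, beside 0.01 over all genes tested. Of all genes, edgeR called 1.12% higher and 0.336% lower, and 8.29% were higher at an unadjusted p under 0.05. The other 2 methods called 367 (DESeq2) and 154 (limma-voom) of all genes higher. Zbp1, a sensor of Z-form nucleic acid, rose by 2.22 ± 0.31 on the log2 scale, Irf7, which amplifies type I interferon, by 1.42 ± 0.22, and Samhd1, a dNTP hydrolase, by 0.72 ± 0.15, with edgeR adjusted p of 0.0144, 0.0151 and 0.0314. Neither the sensor gene Cgas (5.82 ± 2.42 and 5.34 ± 1.003 CPM, edgeR adjusted p = 0.918) nor Tmem173, which encodes STING (16.3 ± 4.95 and 27.7 ± 5.92 CPM, adjusted p = 0.127), passed, each over 3 libraries per group. Ifi35 had the smallest p of those that did not pass (adjusted p = 0.0994). The row of Trex1, a cytosolic DNA exonuclease, held 0 counts in all 6 libraries. It is annotated wholly within Atrip on the same strand, so the 0 cannot be read as a lack of expression. Leaving out WT replicate 1 or KO replicate 2 left 0 of the list called higher, and leaving out WT replicate 2 or WT replicate 3 left 1.

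Of 7 transcription factors of the interferon response 5 rose and 0 fell by edgeR, with a median log2 fold change of 0.70. Several of the 7 bind motifs of the kind shown above, and their part in the members' differences was not tested. DESeq2 called 6 and limma-voom 5 higher, beside 367 and 154 of all genes, and neither called any of the 7 lower. Irf1 rose by 0.91 ± 0.14 on the log2 scale and Irf8, a factor of myeloid and B cells, by 0.70 ± 0.15 (edgeR adjusted p = 0.00681 and 0.0347). Irf5 had 0.66 ± 0.16 (adjusted p = 0.0571). The groups did not overlap for any of the 7, with KO lungs higher, against 10.3% of all genes so placed and 1.12% called higher. Leaving out WT replicate 1, WT replicate 2 or KO replicate 3 left 2 called, leaving out WT replicate 3 left 3, and leaving out KO replicate 2 left 1.

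PYHIN genes are expressed by leukocytes, and some leukocyte markers rose as well. Beside the counts below, edgeR called 1.12% of all genes tested higher and 0.336% lower, and 8.29% were higher at an unadjusted p under 0.05. DESeq2 called 367 of all genes higher and limma-voom 154. Of 8 genes shared by leukocytes 5 rose, among them Ptpn6 and Vav1, and 3 did not pass, among them Ptprc (edgeR adjusted p = 0.406), and their CPM summed to 1234 to 1515 in WT and 1582 to 2037 in KO lungs. Of 12 monocyte and macrophage genes 3 rose, Ly6c2, Ccr2 and Fcgr1, and 9 did not pass, with 4064 to 4955 summed CPM in WT and 5355 to 6105 in KO lungs. Of 7 tested neutrophil genes 2 rose, S100a8 and S100a9 (177.9 to 279.0 and 314.7 to 497.7 CPM summed over the list), and 5 did not pass, of which Mmp8 and Ltf had log2 differences of −0.24 and −0.57 and Csf3r, Cxcr2 and Retnlg overlapped between the groups. Ly6g, a neutrophil marker, had 0 counts in all WT libraries and 4, 14 and 26 in KO lungs (0.920 ± 0.664 CPM, SD, n = 3). It did not pass the filter on low counts and was not tested. S100a9 of the same list had 1157, 1574 and 1794 counts in WT, so the 0 cannot be read as a lack of neutrophils. None of 10 B cell or 10 T cell genes was called by edgeR, 6 and 4 were higher at an unadjusted p under 0.05, DESeq2 called 1 and 2 and limma-voom 0 of either. B cell genes summed to 146.3 to 231.1 CPM in WT and 228.3 to 299.9 in KO lungs, T cell genes to 112.7 to 186.1 and 167.3 to 240.3. Of 5 tested NK cell genes 0 were called by edgeR, DESeq2 or limma-voom and 0 passed an unadjusted p of 0.05 (23.2 to 80.5 and 44.1 to 52.8 summed CPM). Of 8 dendritic cell genes 0 were called by edgeR, 1 by DESeq2 and 0 by limma-voom, with 1 higher at an unadjusted p under 0.05 (284.1 to 342.4 and 322.3 to 391.5 summed CPM). No marker in the leukocyte, monocyte, B cell and T cell lists was at 0 in all libraries. The part of these cells in the differences of Ifi204 and Ifi203 was not tested.

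The genes with the profile most like that of the members over the 6 libraries were Cd69, Psmg4, Ppp1r14b, Bcl11a and Parp9, out of 12738 genes ranked. Likeness was the root mean square difference between a gene's centred log2(CPM + 1) values and the mean of the tested members, and it was 0.0739 for Cd69 and 0.0910 to 0.102 for the others. Cd69, an early activation marker of lymphocytes, had CPM of 8.52, 8.05 and 8.60 in WT and 11.1, 13.3 and 17.4 in KO lungs (edgeR adjusted p = 0.152). Parp9, an interferon-induced gene, had CPM of 54.4, 50.1 and 44.3 in WT and 67.8, 79.0 and 110.8 in KO lungs, and rose (log2 fold change 0.79 ± 0.16, edgeR adjusted p = 0.0330). The same measure was 0.069 for Ifi203 and 0.53 for Ifi204, so Ifi203 lay near the mean of the tested members and Ifi204 away from it. Both are part of that mean, which lowers their values, and the ranked genes are not.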

How the data were processed

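Each of the 6 libraries (3 WT, 3 KO) had a deposited table of raw counts, whole numbers by Ensembl gene. The authors used STAR 2.5 to align read pairs to mm10 (GRCm38) and HTSeq 0.6.1 to count them, per the submitters' processing notes and the series' design text. No source used here gives the strand setting, the annotation release or the counting mode, so reads of overlapping or near-identical genes may be shared or lost. The labels do not say that each library came from 1 animal, and p-values measure the spread between these libraries. No 2 libraries of a group were alike within sampling noise (chi-square per degree of freedom 15.36 to 28.79).

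Symbols, coordinates (counted from 1) and exonic lengths came from GENCODE M21 by identifier, which named 34490 of 35275 rows. 0 rows named no gene. All genes were tested with edgeR 4.0.16 in R 4.3.3 (TMM, filterByExpr with a minimum count of 10, glmQLFit with robust=TRUE, group alone, quasi-likelihood F-test, two-sided, as KO minus WT), with Benjamini-Hochberg adjustment over 15191 genes and a threshold of 0.05. The SE was the absolute log2 fold change over the root of F. The fit was tested on simulated counts, where the share of false calls exceeded the threshold of 0.05 and most 1.5-fold changes were missed. Alternatives were other scalings and filters, DESeq2 1.42.0, limma-voom (limma 3.58.1), robust=FALSE, other thresholds, a replicate block and each library left out. Lists of genes are described by counts and medians, beside all genes. Promoter windows are from RefSeq (GRCm38.p6) and were matched by symbol. The gene names Mnda, Pyhin1, Pydc3, Pydc4 and Mb21d1 were matched as older names of Ifi211, Ifi209, Ifi208, Ifi213 and Cgas. Named genes were all members and family genes, called genes of each list (at most 4 by p), the uncalled gene with the smallest p, set pathway genes, the nearest tested flanking gene, and the 5 genes most alike. Values of some genes that this rule names are not reported here. The members and lists were chosen with earlier results of these data known, and the ratios to Aim2 and the form GAAATCGAAA were chosen after the values and sequences were seen.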

Additional observations from a re-analysis of the deposited data

How the results depend on the processing

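No other scaling (RLE, upper quartile, library totals) and no CPM filter changed a call among the members. Over all genes, 170 higher and 51 lower calls became 578 and 225 with no filter on low counts, 367 and 231 by DESeq2, 309 and 96 with a replicate block, 23 and 2 at a threshold of 0.01, and 315 and 160 at 0.1. The members called higher (2) became 4 with no filter, 1 by limma-voom and 0 at 0.01. Other PYHIN genes called higher (0) became 2 with no filter, 2 by DESeq2 and 1 with robust=FALSE, inflammasome genes (0) became 3 with no filter, 1 by DESeq2, 1 by limma-voom and 2 with the block, and STING genes (3) became 5 with no filter. Ifi203 had a log2 fold change of 0.68 by limma-voom (adjusted p = 0.0535). Ifi207 passed with no filter (0.88, adjusted p = 4.26e-05 by edgeR), by DESeq2 (0.87, 0.00734) and with the block (0.88, 0.0275), and Ifi211 with no filter (1.59, 0.000625). The cause was not tested.

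With 1 library left out, which also leaves fewer samples, calls over all genes ranged from 22 to 404 higher and from 2 to 174 lower. The ranges of genes called higher were 0 to 3 members, 0 to 2 other PYHIN genes, 0 to 1 inflammasome genes, 0 to 4 STING genes and 1 to 6 transcription factors. Log2 fold changes ranged from 0.48 to 0.84 for Ifi203, 1.44 to 2.04 for Ifi204, 0.70 to 1.11 for Ifi207, 0.43 to 0.97 for Ifi209, 0.85 to 2.36 for Ifi211, 0.26 to 0.58 for Mndal, 0.01 to 0.11 for Aim2 and −0.18 to 0.18 for Ifi208, which reversed without WT replicate 2 (0.04) and KO replicate 2 (0.18).

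Deviations of same-numbered libraries correlated at 0.0503, 0.0233 and 0.0295, and those of differently numbered libraries at −0.0862 to 0.0568. WT replicate 2 correlated best with KO replicate 1 (0.0406). Such values cannot decide whether the replicate numbers pair the samples, and the main fit used group alone. Ifi213 did not pass the filter on low counts, and with no filter it was not called (edgeR adjusted p = 0.608).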

Other observations

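Markers of vessels and stroma were measured as well. Of all 15191 genes tested, edgeR called 0.336% lower, DESeq2 231 genes and limma-voom 54. The share of all genes lower at an unadjusted p under 0.05 was not counted. Endothelial genes (8) summed to 6644 to 8409 CPM in WT and 6248 to 7678 in KO lungs, and 0 were called by edgeR, DESeq2 or limma-voom (2 lower at an unadjusted p under 0.05). Of 7 fibroblast and smooth muscle genes 1 fell, Pdgfra, a receptor of fibroblasts (log2 fold change −0.46 ± 0.11, edgeR adjusted p = 0.0486), 4 were lower at an unadjusted p under 0.05 and DESeq2 called 2 and limma-voom 1 lower, with 2600 to 2632 summed CPM in WT and 1789 to 2411 in KO lungs.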
